A study of Mus musculus with 16 samples.

Results

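Lysosome genes were followed in mouse bone marrow stromal cells, cultured under osteogenic conditions, from wild type mice and from mice with a conditional deletion of the histone deacetylase Hdac3. The list holds 37 genes of lysosomal enzymes, membrane proteins, proton pump subunits and their transcription factor Tfeb. It was given by gene symbol, and 36 of the 37 genes had a probe among the 16593 genes measured; Npc1 had none. The brightest probe over all arrays stood for each gene, so brightness itself is not a result, and 35 of the 36 were brighter than the median probe (log2 intensity 6.60). Tfeb was the exception.

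Total RNA of 16 cultures grown for 7 days was labelled with biotin and hybridized to a mouse Illumina BeadChip, which reports each transcript as the intensity of a probe. Of these, 8 were labelled wild type (WT) and 8 Hdac3 conditional knock-out (CKO; arrays named KO), with Cre recombinase driven by the Osterix1 promoter and all mice on a mixed CD1/C57BL6 background. Osterix marks the osteoblast lineage, so macrophages and other blood-derived cells in such a culture would keep the gene. The sources used here do not give Cre status of the wild type mice, the age or sex of the mice, the number of animals or any pooling. A p-value therefore reflects spread among arrays, which may be technical.

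The lysosome is the acidic compartment in which cells break down proteins, sugars, glycosaminoglycans and lipids that arrive from outside by endocytosis and phagocytosis or from inside by autophagy. A proton pump acidifies it, soluble hydrolases carry out the digestion, and membrane proteins protect its wall and export the products. Tfeb is a transcription factor that binds an E-box-like motif found upstream of many of these genes. Macrophages carry many lysosomes because they engulf other material, and osteoclasts release lysosomal enzymes onto bone. The question put here was whether these transcripts differed between genotypes and whether they followed the level of macrophage markers in the cultures.

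The E-box letters CACGTG, which read the same on both strands, were searched in windows of 250 bases before to 50 after a transcript start (RefSeq, GRCm38.p6); of the members, 28 had 1 window and 4 had several, and a gene counted when any of its windows held the motif. Of the 32 members with a window in that table, 13 (40.6%) held the 6-letter motif, against 8.09% of all 27025 genes. The 7-letter TCACGTG, searched on both strands and overlapping the first motif, was found in 12 members (37.5%) and in 4.29% of all genes. Asah1, Atp6v1h, Ctsb and Galns had no window in the table. The stretches below are the 150 bases before the transcript start of the table, 5′ to 3′ on the gene's own strand with each CACGTG in capitals; they show genes with 1 window whose values are described below, with the motif (Naglu, Sgsh, Lamp1 and Mcoln1) and without it (Man2b1 and Hexa). For Man2b1 that start lies 539 bases inside the outer start of the gene in RefSeq, and for Naglu 4 bases, so the Man2b1 stretch is not the sequence before the gene's outermost start.
Naglu: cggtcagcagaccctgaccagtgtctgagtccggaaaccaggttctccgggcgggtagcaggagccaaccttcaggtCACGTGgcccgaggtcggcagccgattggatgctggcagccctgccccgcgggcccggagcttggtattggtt
Sgsh: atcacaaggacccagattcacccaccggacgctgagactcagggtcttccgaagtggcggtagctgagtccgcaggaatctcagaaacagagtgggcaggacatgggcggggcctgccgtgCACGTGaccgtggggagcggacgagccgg
Lamp1: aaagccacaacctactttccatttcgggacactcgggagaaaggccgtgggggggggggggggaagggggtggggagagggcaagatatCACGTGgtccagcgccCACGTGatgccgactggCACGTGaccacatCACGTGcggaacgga
Mcoln1: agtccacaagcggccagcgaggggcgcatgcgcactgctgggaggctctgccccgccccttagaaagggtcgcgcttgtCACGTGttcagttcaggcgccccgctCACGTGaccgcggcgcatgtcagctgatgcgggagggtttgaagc
Man2b1: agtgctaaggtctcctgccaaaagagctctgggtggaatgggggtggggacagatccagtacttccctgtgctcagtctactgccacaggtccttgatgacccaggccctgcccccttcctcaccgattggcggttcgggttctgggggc
Hexa: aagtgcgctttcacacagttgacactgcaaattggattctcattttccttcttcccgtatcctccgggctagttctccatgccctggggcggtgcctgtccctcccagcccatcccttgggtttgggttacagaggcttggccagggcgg

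These stretches lie at chr11:101069944-101070093 (Naglu, plus strand), chr11:119355511-119355660 (Sgsh, minus strand), chr8:13159011-13159160 (Lamp1, plus strand), chr8:3500369-3500518 (Mcoln1, plus strand), chr8:85083119-85083268 (Man2b1, plus strand) and chr9:59539390-59539539 (Hexa, plus strand) of GRCm38.p6. Lamp1 held 4 copies of the 6-letter motif in its stretch, Mcoln1 held 2, and Naglu and Sgsh held 1 each. A match is only a run of letters, and its absence says nothing about the factor.

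Arrays carry a number in their title, and these numbers fall into 5 runs of neighbours: 5 and 7, 13 to 16, 21 to 24, 30 and 32, and 42 to 47. Every run holds as many WT as CKO arrays, and what the numbers stand for is not stated. The targeted transcript, Hdac3, had a mean log2 intensity of 10.42 ± 0.08 (SD, n = 8) in WT and 10.25 ± 0.08 (n = 8) in CKO. The groups overlapped, and the difference gave p = 0.00249 in an exact permutation test and an adjusted p of 0.932 in limma; where the probe lies relative to the deleted part was not examined. WT13 and WT14, the WT arrays of run 2, stood apart in the Y-linked Eif2s3y. Its log2 intensity was 5.89 and 6.17 in them, against 8.28 to 9.89 in the other arrays. X-linked Xist was 7.82 and 7.95 in WT13 and WT14, and 7.03 and 6.87 in KO15 and KO16. In run 2 genotype thus coincided with a difference in these transcripts, so results are also given without run 2.

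**Figure D1:**
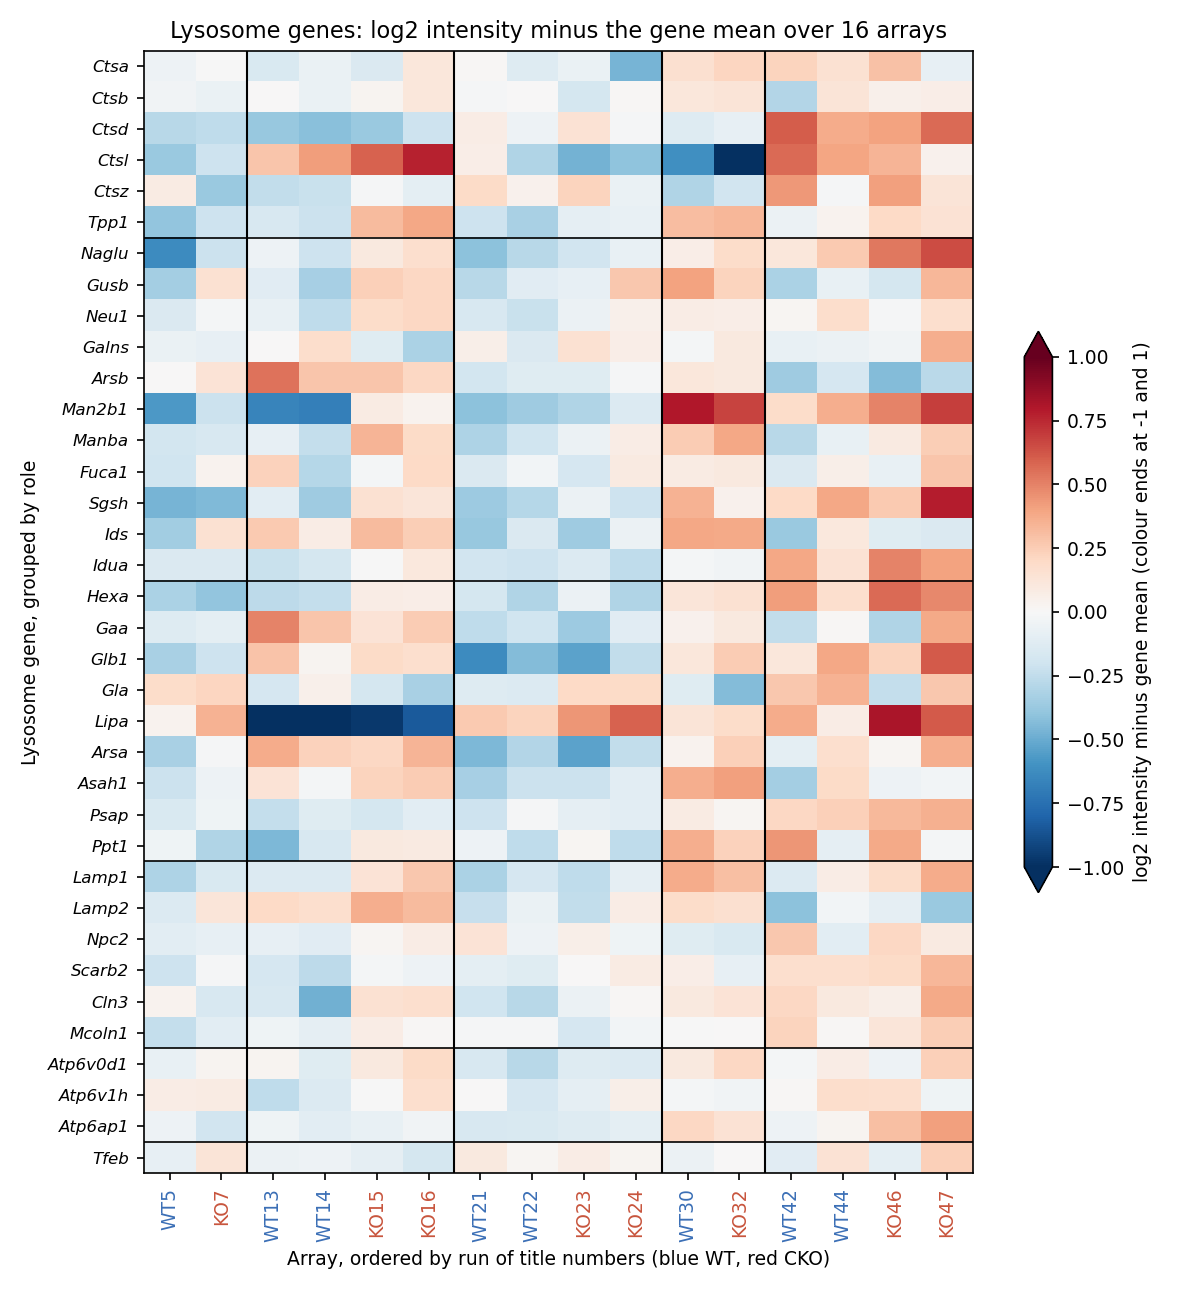
Log2 intensity of each of the 36 lysosome genes minus its own mean over the 16 arrays, with genes grouped by role and arrays ordered by run of title numbers (vertical lines; WT names in blue, KO names in red). Lipa was low in all 4 arrays of run 2, and Ctsl was low in WT30 and KO32.

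For 35 of the 36 members, runs held a larger share of the variance over arrays than genotypes did; Gusb was the exception, at 23.8% and 34.1%. Runs take 4 of the 15 degrees of freedom and genotype 1, so the shares are not on equal terms. The 5 runs held a median of 65.0% of a member's variance over arrays and the genotypes 4.599%, and 25 of the 36 members had over 50% of it between runs. The same median was 37.9% over all 25697 probes and 51.4% over the brightest probe of each gene above the median probe, and for genotypes 3.63% and 4.05%. Ctsd, the aspartic protease cathepsin D, had the highest share at 94.5%, and Galns, which removes sulfate from keratan sulfate, had the lowest at 12.3%.

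The widest ranges of log2 intensity belonged to an acid lipase and a cysteine protease. Lipa, which splits cholesteryl esters and triglycerides, ranged over 1.96 log2 units and had a mean of 8.64 in run 2 against 10.12 in run 5. Ctsl, cathepsin L, ranged over 1.86 and had a mean of 7.48 in run 4 against 8.84 in run 2. The order of the runs thus differed between these genes. At the other end, Tfeb, Npc2 and Ctsb each ranged over 0.42.

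No lysosome gene differed between genotypes past the threshold, an adjusted p under 0.05 over all 25697 probes (limma with no covariate), and neither did any other probe (0% called). The smallest adjusted p among members was 0.932. At an unadjusted limma p under 0.05, 4 members were higher in CKO and 0 were lower, against 2.58% of all probes higher, 2.16% lower, and 3.74% of the brightest probes above the median higher. The 4 were Manba, Gusb, Tpp1 and Neu1, the last being the lysosomal sialidase. The CKO minus WT difference was above 0 for 31 of the 36 members, with a median of 0.098 log2 units, whereas 48.7% of all probes and 50.6% of the brightest probes above the median were above 0, with a median of -0.0023 over all probes. The largest difference among members was that of Man2b1 at 0.33 (1.26-fold). Without run 2, with the other runs as a block, it was 0.20, and the differences of Neu1 and Tpp1 were 0.073 and 0.16 against 0.15 and 0.25 with all runs. Lipa (0.31) and Naglu (0.29) then had the largest differences, and those of Manba and Gusb were 0.23 and 0.24; none passed.

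By role, the sugar-chain enzymes had the highest median difference. Of the 11 hydrolases of glycosaminoglycans and glycoproteins, 10 were above 0 with a median of 0.15 log2 units. Of the 9 hydrolases and cofactors of glycogen, lipids and sphingolipids, 7 were above 0 with a median of 0.091. The 6 proteases had 4 above 0 and a median of 0.024. All 6 genes of the group of membrane proteins, in which the cholesterol carrier Npc2 was counted, were above 0 with a median of 0.097. So were all 3 proton pump subunits, with a median of 0.084. The 5 members below 0 were Ctsl at -0.11, Gla at -0.073, Ctsa at -0.037, Arsb at -0.030 and Gaa at -0.0010, and none of them passed the test.

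Because arrays of a run resembled each other, the same fit was made with the 5 runs as a fixed block. One member, Naglu, then passed the threshold, at a background of 0.171% of all probes called higher (44 of 25697), 0.0467% called lower and 0.218% called in either direction (56); 0.398% of the brightest probes above the median were called higher. Another 11 members had an unadjusted p under 0.05 without passing, so that 12 of the 36 were higher at that level and 0 lower, against 5.81% of all probes higher, 5.37% lower, and 10.8% of the brightest probes above the median higher.

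Naglu encodes the α-N-acetylglucosaminidase that trims heparan sulfate and whose loss causes Sanfilippo syndrome type B. Its log2 intensity was 8.51 at the lowest, 9.02 at the median and 9.41 at the highest in WT, and 8.93, 9.27 and 9.80 in CKO. The groups overlapped over all 16 arrays, but inside each run every KO array was above every WT array. The CKO minus WT difference was 0.42 in run 1, 0.26 in run 2, 0.21 in run 3, 0.12 in run 4 and 0.40 in run 5. With the runs as a block it was 0.28 ± 0.051 (SE; 95% interval 0.17 to 0.39; 1.22-fold; limma adjusted p = 0.0332). An exact permutation test, two-sided, gave p = 0.0875 over all arrangements and 0.00231 within runs, the smallest that arrangements within runs can give. Naglu was not alone in this: in Manba, Lipa and Tpp1 every KO array was also above every WT array inside each run. Their permutation p within runs was the same. The share of all probes in that state was not counted. It cannot exceed the 4.32% of probes whose mean was higher in CKO in all 5 runs.

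The Naglu call depended on which arrays entered. It was lost without any of 10 of the 16 arrays taken singly (WT5, KO7, WT13, WT14, KO15, KO16, WT21, KO24, WT42 and KO47), where the adjusted p rose to at most 0.10, and without run 2, where the difference was 0.29 and the adjusted p 0.366. Without WT30 or KO32, 4 members passed (Naglu, Lipa, Tpp1 and Man2b1), and without WT5 or KO7 only Manba did; in these runs of 2 arrays, leaving out either one removes the run from the comparison. With the macrophage level added as a covariate beside the runs, the Naglu difference was 0.29 with an adjusted p of 0.449.

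**Figure D2:**
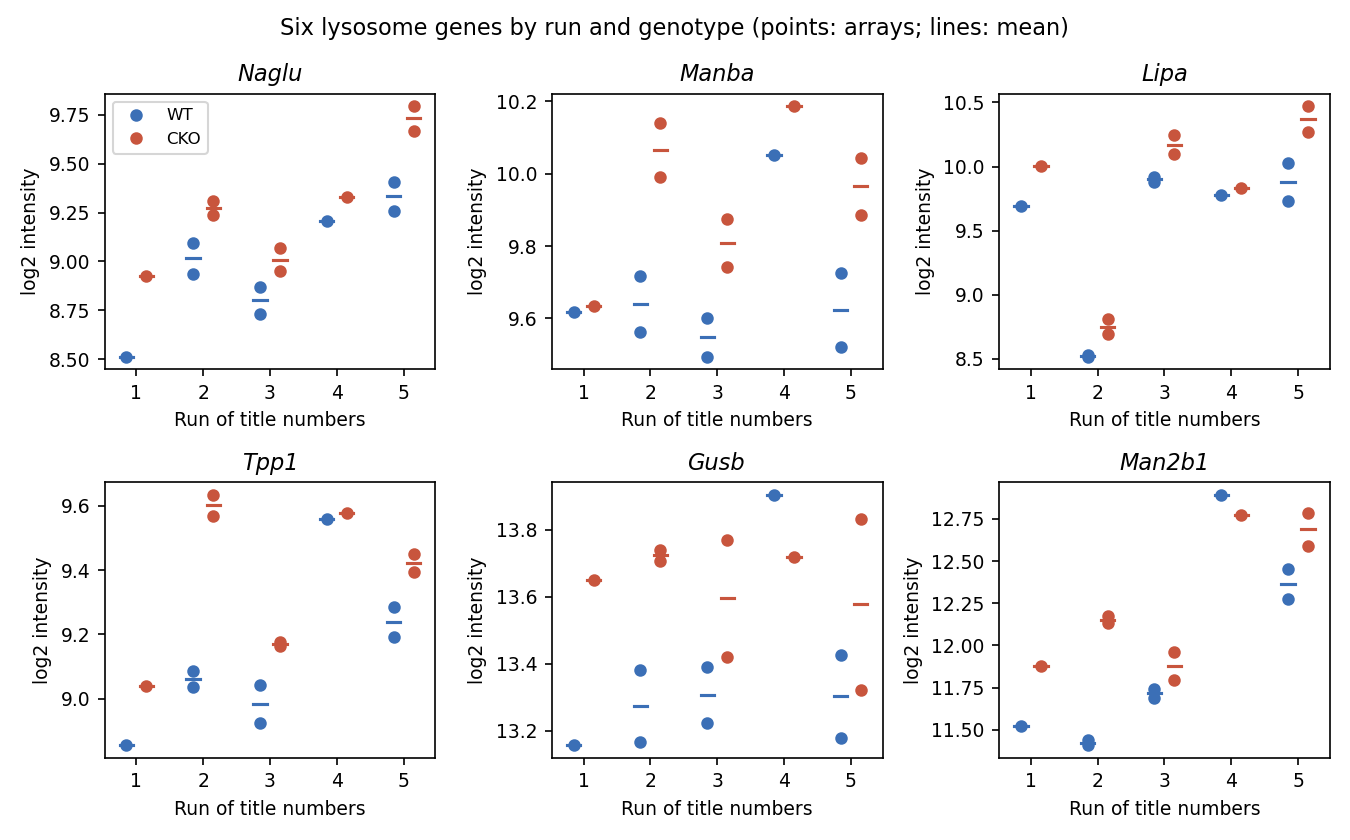
Log2 intensity of 6 lysosome genes in each array by run of title numbers; points are arrays (blue WT, red CKO) and lines the mean of a genotype in a run. In Naglu, Manba, Lipa and Tpp1 the CKO mean lies above the WT mean in all 5 runs, whereas in Gusb and Man2b1 the WT array of run 4 is higher.

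Manba, a β-mannosidase that removes the last mannose of N-glycan fragments, was lowest at 9.49, median 9.61 and highest at 10.05 in WT, and 9.64, 9.94 and 10.19 in CKO. Its WT array of run 4, WT30, was the only WT array above the CKO median. The difference was 0.28 ± 0.087 (SE) without a block and 0.28 ± 0.058 with it, and the limma adjusted p was 0.932 and 0.0752. The difference within a run went from 0.018 in run 1 to 0.42 in run 2.

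Gusb is β-glucuronidase, which acts on several glycosaminoglycans. Its log2 intensity was 13.16 at the lowest, 13.30 at the median and 13.91 at the highest in WT, and 13.32, 13.71 and 13.83 in CKO. The highest of all 16 values was the WT array WT30. The difference was 0.29 ± 0.10 (SE) without a block, and limma's adjusted p with the runs was 0.208.

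Tpp1, a serine protease that cuts tripeptides from protein ends and is lost in a form of Batten disease, was 8.86 at the lowest, 9.06 at the median and 9.56 at the highest in WT. In CKO these values were 9.04, 9.42 and 9.64. The groups overlapped, with WT30 at 9.56, just below KO15, KO32 and KO16, and both arrays of run 1 lowest in their genotype. The difference was 0.25, and the blocked limma fit gave an adjusted p of 0.104.

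Lipa had a much smaller error within runs than over all arrays. It ranged from 8.52 through a median of 9.76 to 10.03 in WT, and from 8.69 through 10.05 to 10.47 in CKO. All 4 arrays of run 2 were below every other array. The difference had an SE of 0.30 without a block and of 0.060 with it (0.29 in both; limma adjusted p 0.942 and 0.0638).

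In all, 8 members were higher in CKO in all 5 runs and 0 were lower in all 5; 4.32% of all probes were higher in all 5 runs and 5.19% lower. They were Naglu, Manba and Fuca1 (an α-fucosidase) among the sugar-chain enzymes, Lipa, Asah1 (acid ceramidase) and Glb1 (acid β-galactosidase) among the lipid enzymes, the protease Tpp1 and the proton pump subunit Atp6v0d1. No member had genotypes that did not overlap over all 16 arrays, a state found in 0.00778% of probes.

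**Figure D3:**
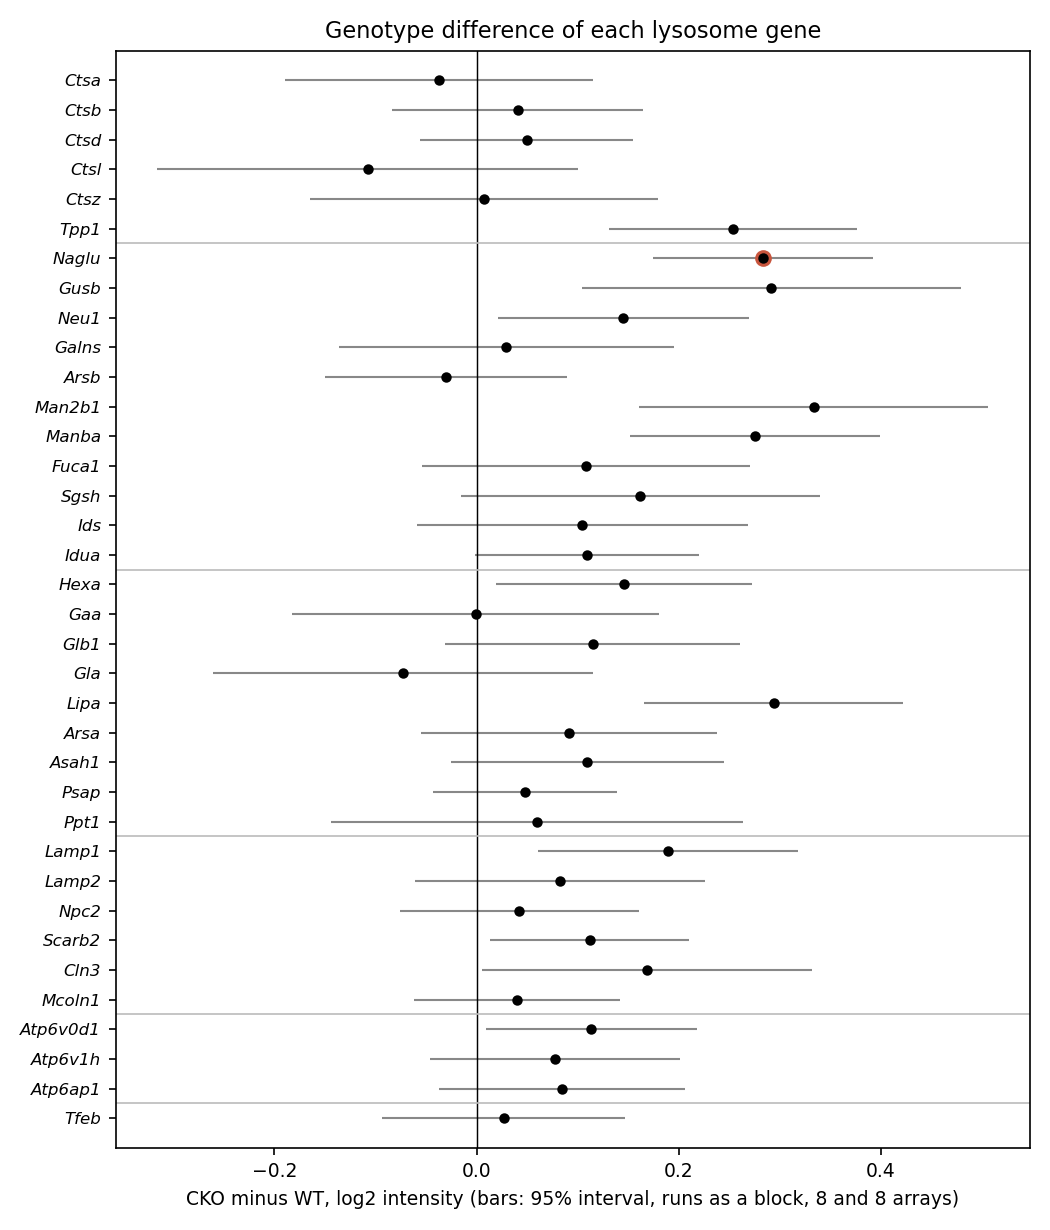
CKO minus WT difference in log2 intensity for each of the 36 lysosome genes with its 95% interval, from the fit with the runs as a block (8 and 8 arrays), grouped by role. The larger red point is Naglu. Most points lie right of 0 with a median of 0.098, and only Naglu passed the adjusted threshold.

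The size of the shift varied between runs. In run 2, 30 of the 36 members were higher in CKO with a median difference of 0.18, and in run 4 this was 19 of the 36 with a median of 0.0094. Runs 1, 3 and 5 had 28, 27 and 28 members higher, with medians of 0.11, 0.065 and 0.11. The macrophage marker level, the mean log2 intensity of 14 marker genes, differed between CKO and WT by 0.69 in run 2 and by 0.012 in run 4, and by 0.12, 0.025 and 0.23 in runs 1, 3 and 5. Run 2 had the highest and run 4, with 1 array per genotype, the lowest value of both, while runs 1 and 5 changed places. Besides the Y-linked Eif2s3y, other marker levels also differed in run 2. The mean of the adipocyte markers was 9.98 and 9.90 in its CKO arrays against 8.78 and 8.76 in WT. That of the neutrophil markers was 7.78 and 7.69 against 7.12 and 7.09. A link between these levels and the lysosome values was not tested. Without run 2 and with the other runs as a block, the median over members was 0.079, with 31 of the 36 above 0 and 0 called. With the macrophage level as a covariate, the median was 0.034 with 23 of the 36 above 0 without a block, and 0.085 with 30 of the 36 above 0 with the runs as a block; 0 members were called in either fit.

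Markers of other cells were compared between genotypes in the same fits, and 1 of them was called, only when runs were in the fit. In bulk RNA, fewer cells of a type and less RNA per cell cannot be told apart. Of the 14 macrophage markers, 12 were above 0 with a median difference of 0.23, and their level ranged from 9.34 to 10.43 in WT and from 9.74 to 10.46 in CKO; 0 were called with or without the block. All 7 measured adipocyte markers were above 0 with a median of 0.38, and 1 (Adipoq) was called with the runs as a block; their level was 7.91 to 8.78 in WT and 8.17 to 9.98 in CKO. Of the 9 osteoblast markers 2 were above 0 (median -0.065), of the 9 osteoclast markers 3 (median -0.019), of the 7 neutrophil markers 5 (median 0.058) and of the 5 endothelial markers 4 (median 0.0485), with 0 called. Of the 5 lymphocyte markers 2 were above 0, and all 5 were at or below the median probe. The part of the adipocyte and the other lists in the lysosome values was not tested.

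The macrophage marker level itself differed between runs. It was 9.34 in WT13 and 9.42 in WT14, the lowest of all arrays, and 10.46 in KO46, the highest, followed by 10.44 in KO32 and 10.43 in WT30. Runs held 68.4% of its variance, and the genotypes overlapped (9.86 ± 0.38 in WT and 10.11 ± 0.27 in CKO, SD, n = 8 each). The markers did not all move together. Of the 14, 12 had a slope above 0 on their own mean, which is partly built in because each is part of it. Cx3cr1 had the steepest, 3.26, and 0.43 with the runs as a block. Cd14, a lipopolysaccharide co-receptor, had -1.06 and Fcgr1, an antibody receptor, -0.23 without the block. Csf1r had no probe.

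With macrophage marker level, 6 lysosome genes rose and 0 fell. The slope is the change in a gene's log2 intensity per log2 unit of marker level, from limma over all probes with genotype as a term and adjusted over all probes. The background was 2.60% of all probes called higher (669 of 25697), 5.26% of the brightest probes above the median, 1.32% of all probes called lower and 3.93% called in either direction. At an unadjusted p under 0.05, 18 members had a slope above 0 and 1 below, against 7.96% and 7.44% of all probes and, above 0, 13.5% of the brightest probes above the median. Over the 36 members the slope was above 0 for 29, with a median of 0.25, against 49% of all probes, 47.6% of the brightest probes above the median and a median of -0.0030 over all probes.

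Man2b1, a lysosomal α-mannosidase of glycoprotein breakdown, had the steepest slope, 1.36 ± 0.14 (SE; 95% interval 1.06 to 1.65; limma adjusted p = 3.65e-05). Its log2 intensity was 11.41 in WT14 and 11.44 in WT13, where the marker level was lowest, and 12.89 in WT30, 12.77 in KO32 and 12.79 in KO47, where it was high; KO46, with the highest level, had 12.59. The slope was 1.35 in WT arrays alone and 1.37 in CKO arrays alone. With the level as a covariate the genotype difference of Man2b1 was -0.0095 (95% interval -0.20 to 0.19), against 0.33 without it; with the level and the runs together it was 0.14 (-0.041 to 0.32).

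Hexa, the α subunit of β-hexosaminidase, which degrades the ganglioside that accumulates in Tay-Sachs disease, had a slope of 0.74 ± 0.15 (SE; limma adjusted p = 0.00741). Its log2 intensity went from 11.06 in KO7 to 12.03 in KO46. In WT it was 11.14 at the lowest, 11.25 at the median and 11.88 at the highest, and in CKO 11.06, 11.53 and 12.03. The arrays of run 5 were the 4 highest.

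Ppt1, a thioesterase that removes palmitate from proteins, had a slope of 0.66 ± 0.12 (SE; limma adjusted p = 0.00442). It was 8.88 at the lowest, 9.26 at the median and 9.78 at the highest in WT, and 9.03, 9.39 and 9.71 in CKO. WT13 was lowest for both Ppt1 and the marker level, but WT42, the highest in Ppt1, had the fifth highest marker level, 10.18.

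Sgsh, a sulfatase of heparan sulfate, had a slope of 0.75 ± 0.19 (SE; limma adjusted p = 0.0372), with 7.25 at the lowest, 7.52 at the median and 8.10 at the highest in WT and 7.27, 7.80 and 8.50 in CKO. Its highest value was in KO47. Psap, the precursor of the saposins that help hydrolases reach sphingolipids, had a slope of 0.42 ± 0.11 (adjusted p = 0.0430), and Tpp1 one of 0.47 ± 0.13 (adjusted p = 0.0475). Leaving out single arrays kept the calls of Man2b1, Ppt1 and Hexa in all 16 cases, whereas Sgsh lost its call in 9, Psap in 11 and Tpp1 in 12, and the number of members called lay between 3 and 7.

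**Figure D4:**
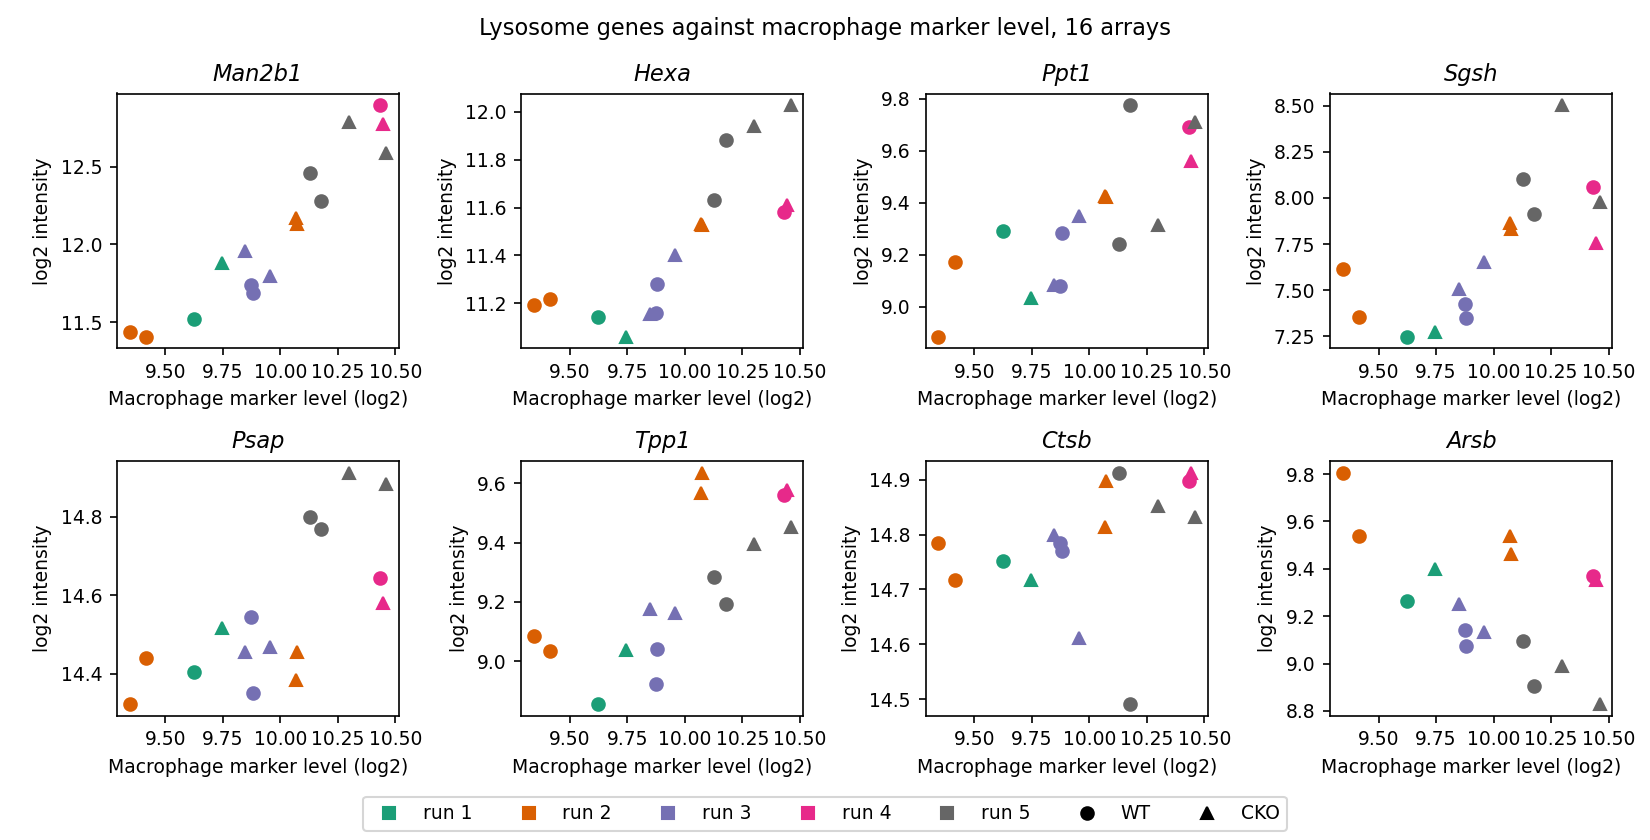
Log2 intensity of 8 lysosome genes against the macrophage marker level (mean log2 intensity of 14 markers) in 16 arrays, coloured by run of title numbers, with circles for WT and triangles for CKO. Man2b1 and Hexa rise from the WT arrays of run 2 at 9.34 and 9.42 to runs 4 and 5. WT42 lies lowest for Ctsb, and the WT and CKO arrays of run 2 lie far apart in marker level.

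With the runs as a block 0 members were called, at a background of 0.673% of all probes called higher, 0.249% lower and 0.922% in either direction, and 1.31% of the brightest probes above the median higher. The median slope over members was then 0.11 with 25 of the 36 above 0, against 48.2% of all probes and 47% of the brightest probes above the median. At an unadjusted p under 0.05, 6 members had a slope above 0 and 2 below, against 4.64% and 4.81% of all probes and, above 0, 7.26% of the brightest probes above the median. Man2b1 then had a slope of 0.77 (limma adjusted p = 0.158), Ppt1 0.88 (0.192), Hexa 0.50 (0.320), Tpp1 0.58 (0.120), Sgsh 0.32 (0.837) and Psap 0.041. The slope of Naglu was 0.58 (adjusted p = 0.102) without the block and -0.041 with it, and that of Lamp2 changed from -0.19 to 0.12. The smallest adjusted p with the block was 0.0974, for Ctsl, whose slope was 0.99 with the runs and -0.23 without them. A blocked slope rests on differences in marker level inside runs. Between CKO and WT these were 0.69 in run 2 and 0.012 to 0.23 in the other runs. Run 2 therefore weighs most in these slopes, and a blocked slope without run 2 was not fitted.

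The calls also depended on how the level was built and on which arrays entered. Without run 2, 8 members were called, with a median slope of 0.35: Naglu, Lamp1 and Atp6ap1 joined the list and Psap left it. Of all 25697 probes, 643 were then called higher. Without WT13 and WT14, the arrays farthest from the median marker level, 9 members were called, beside 650 of all probes called higher. With the median of the markers in place of their mean 0 members were called, with z-scored markers 3, and without the C1q genes 3 (Man2b1, Hexa and Ppt1 in both). Of all probes, 102, 507 and 582 were called higher in these settings. Within WT arrays alone only Man2b1 was called, and within CKO arrays alone Man2b1 and Hexa, beside 319 and 112 of all probes called higher.

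By role, 2 of the 11 sugar-chain enzymes, 1 of the 6 proteases and 3 of the 9 lipid and glycogen enzymes were called. Of the 6 genes grouped as membrane proteins (Npc2 included), the 3 proton pump subunits and Tfeb, 0 were called. The median slopes were 0.22, 0.33, 0.39, 0.27 and 0.17 in the order of the first 5 groups. The lowest slope was that of Arsb, arylsulfatase B of dermatan and chondroitin sulfate, at -0.48 ± 0.17 (SE; limma adjusted p = 0.151). Arsb ranged from 8.91 through 9.20 to 9.81 in WT and from 8.83 through 9.30 to 9.54 in CKO, highest in run 2 and lowest in run 5; it passed as lower only when WT30 was left out. Lamp2, a membrane glycoprotein needed for fusion with autophagosomes, had the next smallest p among slopes below 0 (-0.19; limma adjusted p = 0.709). It ranged from 12.50 through a median of 12.86 to 13.10 in WT and from 12.54 through 13.004 to 13.27 in CKO, with a genotype difference of 0.083.

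The membrane proteins Lamp1 and Mcoln1, the cholesterol carrier Npc2 and the regulator Tfeb passed neither for genotype nor for slope, with or without the runs in the fit. Lamp1, the abundant wall glycoprotein, was 13.26 at the lowest, 13.43 at the median and 13.94 at the highest in WT and 13.32, 13.73 and 13.94 in CKO, with a genotype difference of 0.19 (limma adjusted p with the runs 0.231) and a slope of 0.47 (adjusted p = 0.0559). Mcoln1, the calcium channel TRPML1, was 7.78, 8.01 and 8.25 in WT and 7.85, 8.03 and 8.26 in CKO, with a difference of 0.040 and a slope of 0.23. The genotypes overlapped in both genes. Npc2, which hands cholesterol to the export machinery, was 11.72, 11.75 and 12.11 in WT and 11.69, 11.88 and 12.05 in CKO, with a difference of 0.042 and a slope of 0.12.

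Ctsb, the cysteine protease cathepsin B, was 14.49 at the lowest, 14.78 at the median and 14.91 at the highest in WT and 14.61, 14.82 and 14.91 in CKO, with a difference of 0.041 and a slope of 0.10. Ctsd was 7.76, 8.09 and 8.78 in WT and 7.80, 8.13 and 8.735 in CKO, with a difference of 0.050 and a slope of 0.64 (limma adjusted p = 0.106). Its values were sorted by run, from a mean of 7.83 in run 2 to 8.66 in run 5. Tfeb was 6.30, 6.36 and 6.56 in WT and 6.24, 6.43 and 6.65 in CKO, close to the background of the array, with a difference of 0.027 (95% interval -0.093 to 0.15 with the runs as a block) and a slope of -0.0015.

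The other members are given by role. Neu1, the sialidase, was 10.93 at the lowest, 11.07 at the median and 11.36 at the highest in WT and 11.13, 11.24 and 11.39 in CKO, with a difference of 0.15 that gave p = 0.0443 in an exact permutation test and a limma adjusted p of 0.350 with the block. The remaining enzymes of sugar chains, Idua and Ids of heparan and dermatan sulfate, Fuca1 and Galns, had differences of 0.11, 0.10, 0.11 and 0.029, and slopes of 0.49, 0.056, 0.069 and -0.017. Of these, Idua came nearest to the threshold for the slope (limma adjusted p = 0.0729).

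Among the lipid and glycogen enzymes, Glb1 had a difference of 0.11 and a slope of 0.39, Asah1 0.11 and 0.20, Arsa (arylsulfatase A, which acts on sulfatide) 0.091 and 0.054, Gla (α-galactosidase A) -0.073 and -0.12, and Gaa (acid α-glucosidase, which degrades glycogen) -0.0010 and -0.20. None of them passed in either fit. Of the proteases, Ctsa, which also protects Glb1 and Neu1 in a complex, had a difference of -0.037 and a slope of 0.41 (limma adjusted p = 0.0593), and Ctsz, cathepsin Z, 0.0073 and 0.26.

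Of the membrane proteins, Cln3, which is mutated in juvenile Batten disease, was 10.05 at the lowest, 10.47 at the median and 10.74 at the highest in WT and 10.37, 10.63 and 10.91 in CKO, with a difference of 0.17 and a slope of 0.40 (limma adjusted p = 0.0789). Scarb2, the receptor that carries β-glucocerebrosidase to the lysosome, had a difference of 0.11 and a slope of 0.31. The pump subunits Atp6v0d1, Atp6ap1 and Atp6v1h had differences of 0.11, 0.084 and 0.077 and slopes of 0.17, 0.35 and 0.14. The genotypes overlapped in all of these genes.

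Values were also set beside the promoter motif. The 12 members that hold TCACGTG had a median genotype difference of 0.10 and a median slope of 0.40, and 1 of them (Sgsh) had a called slope. The 20 members with a window and no such motif had medians of 0.11 and 0.28, and 5 called slopes. Naglu, the gene called between genotypes with the runs as a block, carries 1 motif, starting 73 bases before the transcript start, and the single Man2b1 window, which lies inside the outer start of that gene, holds none. Of the 37 windows of members, 11 have a transcript start inside the outer start of their gene. Among them are the windows that hold the motif in Ctsa and Cln3, 901 and 2581 bases inside. Those of Ppt1 and Tpp1, without the motif, lie 150 and 47 bases inside. The values by motif describe the list and were not tested.

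Other lysosome genes were examined in 4 further lists. Among proteases, hydrolases, membrane transporters and proton pump subunits, 44 genes were measured, of which 35 had a genotype difference above 0 (median 0.090) and 0 were called with or without the runs as a block. Their slope on macrophage level was above 0 for 38, with a median of 0.23, and 7 were called, all higher. Ctss, cathepsin S of antigen-presenting cells, had 1.24 (limma adjusted p = 0.000459), Gm2a, the ganglioside activator, 1.04 (0.000909) and Lgmn, the asparaginyl endopeptidase, 0.70 (0.00460). The other 4 were Dnase2a at 0.67, Ostm1 at 0.48, Cln8 at 0.42 and Atp6v1e1 at 0.35. With the runs as a block only Gm2a passed, at 0.97 (limma adjusted p = 0.0488).

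Genes that deliver or regulate lysosomal proteins gave scattered calls. Of the 8 sorting genes, Sort1, the sorting receptor sortilin that carries prosaposin among other cargo, was called with a slope of 1.49 (limma adjusted p = 0.00395). Of the 13 regulators, Tfe3, a factor related to Tfeb, and Rraga, a GTPase of the amino acid sensor, were called with slopes of 0.51 and 0.35. Of the 11 autophagy genes, Gabarapl1 and Gabarapl2 were called with 0.53 and 0.34. Of the 6 phagocyte lysosome genes, Unc93b1, which brings Toll-like receptors to endosomes, was called with 0.81 and Laptm5 with 0.77. Slc11a1 had the steepest slope, 1.07, without passing (limma adjusted p = 0.0578), and 0.26 with the runs as a block. Lyz2, lysozyme, had 0.23 and Gpnmb -0.14. Their mean log2 intensities, 14.96 and 14.84, lay close to the highest on the arrays, which limits how far they can rise. Of the 7 called genes, Unc93b1 alone remained called in the fit blocked on runs (limma adjusted p = 0.0349). No gene of these lists was called between genotypes in either fit. Their genotype difference was above 0 for 8 of the 8 sorting genes (median 0.11), 7 of the 13 regulators (0.0043), 5 of the 11 autophagy genes (-0.0011) and 6 of the 6 phagocyte genes (0.19).

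**Figure D5:**
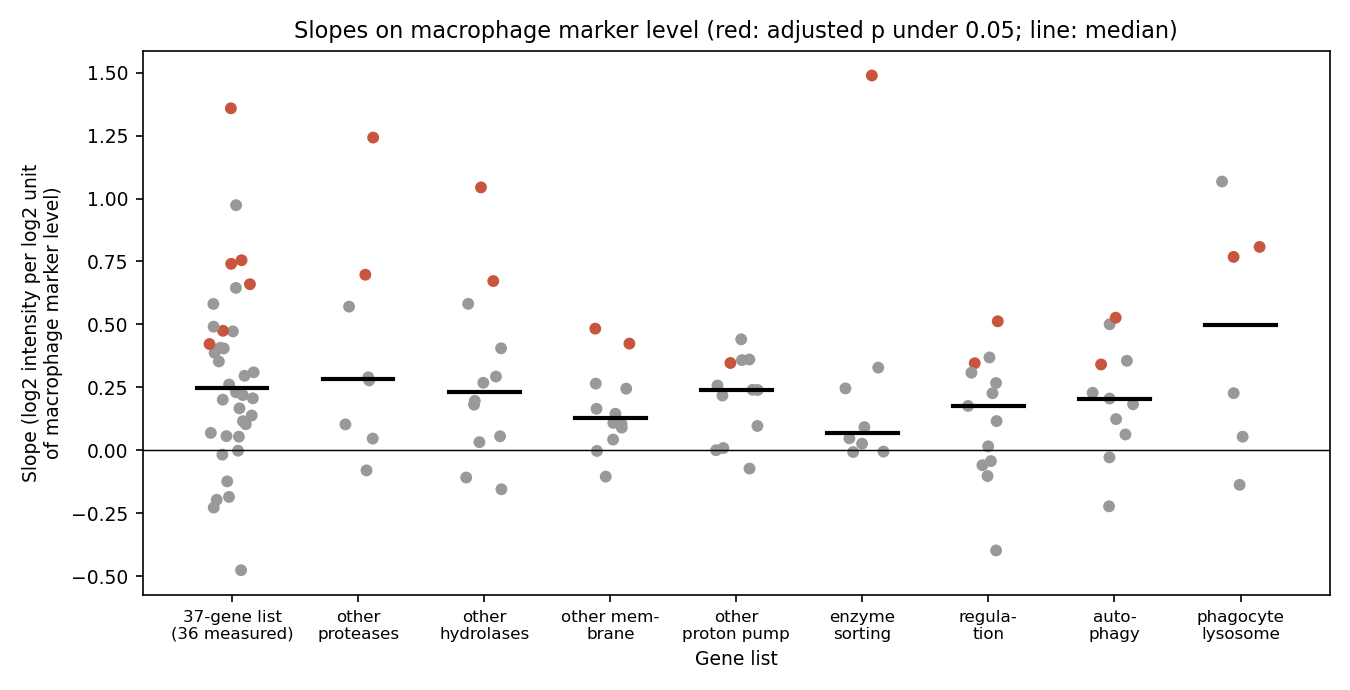
Slope of log2 intensity on macrophage marker level, with genotype as a term, for the 36 measured genes of the list and for 8 other lists of lysosome-related genes; points are genes, red where the adjusted p was under 0.05, and bars are medians. The list has a median of 0.25 and 6 red points, and the phagocyte list has the highest median, 0.50.

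Markers of other cells were also set against macrophage marker level. With genotype as a term, endothelial Emcn had a slope of 2.50 and Pecam1 of 1.12, both called, and the list level ranged from 7.01 to 8.17 in WT and from 7.18 to 8.26 in CKO. All 9 osteoblast markers had slopes below 0 (median -0.72), with Sp7 called at -0.86; without run 2, 5 of the 9 were above 0 (median 0.17). Their level ranged from 9.70 to 11.34 in WT and from 9.63 to 10.81 in CKO. Of the 9 osteoclast markers, Mmp9 was called at 1.79 and Ctsk at -0.84, and Atp6v0d2, Calcr, Ocstamp, Dcstamp and Itgb3 were at or below the median probe; the list level was 7.17 to 7.40 in WT and 7.18 to 7.37 in CKO. Of the 7 neutrophil markers 1 and of the 7 adipocyte markers 1 had a slope above 0, with 0 called, and of the 5 lymphocyte markers 4, with 0 called. With the runs as a block, a fit in which run 2 weighs most, the order was different. Of the neutrophil markers 7 of the 7 (S100a8 called) and of the adipocyte markers 6 of the 7 (Cidec, Lep and Plin1 called) had slopes above 0. Of the endothelial, osteoblast, osteoclast and lymphocyte markers 0 were called. All 14 of the 14 macrophage markers had slopes above 0 (5 called), but each is part of the level, so this is partly built in. The part of the other cells in the lysosome slopes was not tested.

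More than 1 probe was present for 11 members, which had 21 other probes. The genotype difference had the same sign as in the brightest probe for 8 of the 21, and for 7 of the 14 that were above the median probe. The slope had the same sign for 15 of the 21 and 11 of the 14. A dimmer probe of Gusb had a called slope of 0.44 (limma adjusted p = 0.000733), where the brightest had 0.22 (0.582). Lamp2 had slopes of -0.19 and -0.048 at its brightest probes but 0.57 and 0.48 at the others, none of them called. The second Manba probe had a genotype difference of 0.19, beside 0.28 at the brightest. The other Gusb probes, both above the median probe, had 0.012 and 0.16, beside 0.29. Those of Atp6v0d1 had -0.017, -0.037 and 0.015, beside 0.11, and those of Asah1 -0.0016 and -0.067, beside 0.11. No other probe was called between genotypes in either fit.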

How the data were processed

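The values are probe intensities of 16 arrays that the authors deposited on a linear scale, quantile normalized, since all arrays share their highest (37892) and nearly their median intensity; software, background treatment and filters: not given in the sources used here. The lowest intensity per array lies between 53.1 and 54.2, so background was not removed to 0, which compresses the fold changes of dim probes. The number of arrays limits the precision. Intensities were floored at 16 (0 values lay below) and log2 transformed. Of 25697 probes, 23978 had 1 symbol and 1719 none; platform symbols (2016) were brought up to date by Entrez identifier with RefSeq genes of GRCm38.p6 (23962 matched).

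Groups came from the titles. Genotype and slope were fitted with limma 3.58.1 in R 4.3.3 (lmFit, eBayes, two-sided) over all probes with Benjamini-Hochberg adjustment at 0.05, the genotype fit with no covariate and beside it with the runs of title numbers as a fixed block. A new run starts after a gap over 4 between title numbers. The macrophage level is the mean of Adgre1, Cx3cr1, Mrc1, Itgam, Aif1, Tyrobp, Fcgr1, Msr1, C1qa, C1qb, C1qc, Cd163, Cd14 and Ptprc. Exact permutation tests of single genes used 12870 arrangements of the arrays, or 864 within runs. The code was tested on simulated data. Named are the 3 members with the smallest genotype p in each fit, the 4 and 2 with the smallest p for slopes above and below 0, every called member, and Lamp1, Ctsb, Ctsd, Tfeb, Mcoln1, Npc2 and Naglu; of other lists, called genes and up to 2 more. Other genes were named after their values were seen. The members, lists and tests were chosen with earlier results of these data known.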

Additional observations from a re-analysis of the deposited data

Results flagged for a closer look

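Of the 36 genes, 3 had an array far from the others of its genotype, among 72 groups of 8 arrays examined; chance alone flags about 1 group in 20. Ctsb was lowest in WT42, at a log2 intensity of 14.49, with the next WT array at 14.72. Gusb was highest in WT30, at 13.91, with the next WT array at 13.43. Manba was also highest in WT30, at 10.05, with the next WT array at 9.72. WT30 had a macrophage marker level of 10.43, the highest among WT arrays, and the part of that level in these values was not tested.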

How the results depend on the processing

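Of 1021 values recomputed under other settings, 882 counted as unchanged. For single genes this meant keeping direction and side of the threshold. Counts of members could also differ somewhat, as from 6 called slopes to 4 with the lowest intensity subtracted. The genotype comparison called 0 members without a block and 1 with the block on runs; it called 0 with the runs as a random block, a rank sum test, 5 pairs of run means, the macrophage level as a covariate, and without run 2. Leaving out single arrays with the block gave 0 to 4 members, and the slope with the block 0 to 1 (Ctsl, without WT5 or KO7). The slope called 6 members; it called 0 in the fit blocked on runs, 12 with no genotype term, 1 in WT arrays, 2 in CKO arrays, 0 with the median of the markers, 3 with z-scored markers and 3 without the C1q genes. Single arrays left out gave 3 to 7 higher and 0 to 1 lower (Arsb, without WT30). Over all probes the slope called 1009, but 237 in the blocked fit, 168 with the median of the markers, 464 in WT arrays and 223 in CKO arrays; the genotype fit called 0 and, with the block, 56 (5 without run 2, 12 to 149 without single arrays). The blocked slope called 64 to 315 probes without single arrays. With no genotype term the slope called 1416 probes, without run 2 it called 1149, and without WT13 and WT14 it called 1170. It called 753 with z-scored markers and 816 without the C1q genes.

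Some directions reversed; the values reversed were not past the threshold before or after. The genotype difference became -0.11 for Ctsd and -0.018 for Mcoln1 with the macrophage covariate, -0.035 for Npc2 with that covariate and the runs, and -0.013 for Tfeb with the mean of all its probes. The slope of Lamp2 became 0.12 with the runs, 0.0062 without WT13 and WT14, 0.042 without run 2 and 0.22 with the mean of its probes. The slope of Naglu went from 0.58 to -0.041 with the runs. Among members not listed for every setting, the runs also turned the slopes of Glb1 (0.39 to -0.37), Ctsl (-0.23 to 0.99), Atp6ap1 (0.35 to -0.031), Arsa (0.054 to -0.37), Fuca1 (0.069 to -0.15) and Ids (0.056 to -0.092). That of Tfeb became 0.014 with no genotype term, 0.041 in WT arrays and 0.0097 without the C1q genes. With single arrays left out, the genotype difference ranged from -0.027 to 0.14 for Ctsd and from -0.0056 to 0.054 for Tfeb, and the slope of Tfeb from -0.035 to 0.035. The cause was not tested. No title number occurs in both genotypes, so samples could not be paired by number; the 5 pairs were means of each run and genotype. Most members were well above the background intensity, so low signal limits chiefly Tfeb, Fuca1 and Galns. Ctsb and Psap, with mean log2 intensities of 14.78 and 14.56, lay close to the highest on the arrays, which limits how far they can rise.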
